A study of Apostichopus japonicus with 9 samples.

Results

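MicroRNAs (miRNAs) are short RNAs that guide Argonaute proteins to messenger RNAs through the seed, a few bases near the 5′ end, and lower translation or stability of the target. Their levels in a whole organ follow both its cell types and their state. In the sea cucumber Apostichopus japonicus the gut shrinks during summer dormancy, when the water is warm. Here 52 of the 409 deposited miRNA names are described: those that the authors listed as different from the control after both times in warm water, and that had reads in at least 1 of the heat groups. Of 156 names listed at both times, 76 had 0 heat reads and 28 belong to families or numbers left out by the rule, such as let-7, miR-1, miR-10, miR-71 and miR-92. The members were thus selected on the deposited read counts and on the authors' listing at both times, so the time courses below are a description and no test was run on them.

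Small RNA of the intestine was sequenced from sea cucumbers of 100 to 120 g, 1 library per individual, in 3 groups of 3 libraries. The control animals were kept under normal conditions, and the heat groups were held at 26 °C for 6 h or 48 h. No genotype, strain, control temperature or control sampling time was given in the sources used here, and both heat groups share the same control animals. In such bulk tissue, fewer cells of a type and less RNA per cell cannot be told apart. Levels are the authors' group means in RPM, reads scaled to a library of 1 M (mega) reads, and the deposited tables give no value per library and no SD. The authors listed names beyond 2-fold on pooled counts, and the smallest log2 ratio of a member in size was 1.01 in the authors' deposited table. The member with the lowest heat count, miR-6090, had 1208 reads at 48 h, with an exact Poisson 95% interval of 1141 to 1278 that covers counting error only.

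Library totals could be recovered from the counts and means: the control libraries had 91.6, 109 and 145 M reads, the 6 h libraries 54.4, 69.3 and 96.9 M, and the 48 h libraries 57.2, 61.9 and 113 M. They also show whether the reads of a name came from 1 library or from more. The smallest level of a single library in either table was 20.01 RPM, so a group listed at 0 is read as below 20 RPM in every library. A group mean can then lie under 20 RPM only because some of its libraries are empty. For each member a least fold is given, in which the higher mean is divided by the lower mean after every library that can be empty in the lower group is set to 20 RPM. Most of the names come from other species and only tell which known sequence was matched. The tissue label could not be checked well, since the tables list differing names only. Of names known from vertebrate gut, miR-194-5p, a miRNA of intestinal epithelium, had no control reads, but 1 name cannot check the label. Among names listed at 6 h, those matched by number as secretory summed to 4058 RPM in the control, and those matched as epithelial to 69.8 RPM. For the names listed at 48 h these control sums were 4596 and 0 RPM.

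Of the 52 miRNAs, 28 were higher than the control at both times, 5 were lower at both, 9 were higher at 6 h and lower at 48 h, and 10 were lower at 6 h and higher at 48 h. At 6 h this makes 37 higher (71.2%) and 15 lower (28.8%), where the authors' listing holds 38.7% of 403 tested names as higher and 29.5% as lower. Every member is a listed name, so the shares of tested names are no like base. Of the 275 names listed at 6 h, 156 were higher and 119 lower. At 48 h it makes 38 higher (73.1%) and 14 lower (26.9%), where 43.1% of 415 tested names were listed as higher and 26.7% as lower. Of the 290 names listed at 48 h, 179 were higher and 111 lower. These listed names are no like base either. The rule left out 76 names listed at both times without heat reads, which can only be lower at both. The excess of higher over lower members thus follows at least in part from the rule. A least fold of at least 2 was reached at 6 h by 15 of the 37 higher members (40.5%), against 33.3% of all 156 names listed as higher. It was reached by 6 of the 15 lower members (40%), against 24.4% of the 119 names listed as lower. At 48 h it was reached by 13 of the 38 higher members (34.2%), against 33.5% of 179 names, and by 5 of the 14 lower members (35.7%), against 26.1% of 111 names. At both times it held for 12 members and at neither for 25. The rule used these contrasts, so nothing is read from the member counts beside the shares.

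**Figure D1:**
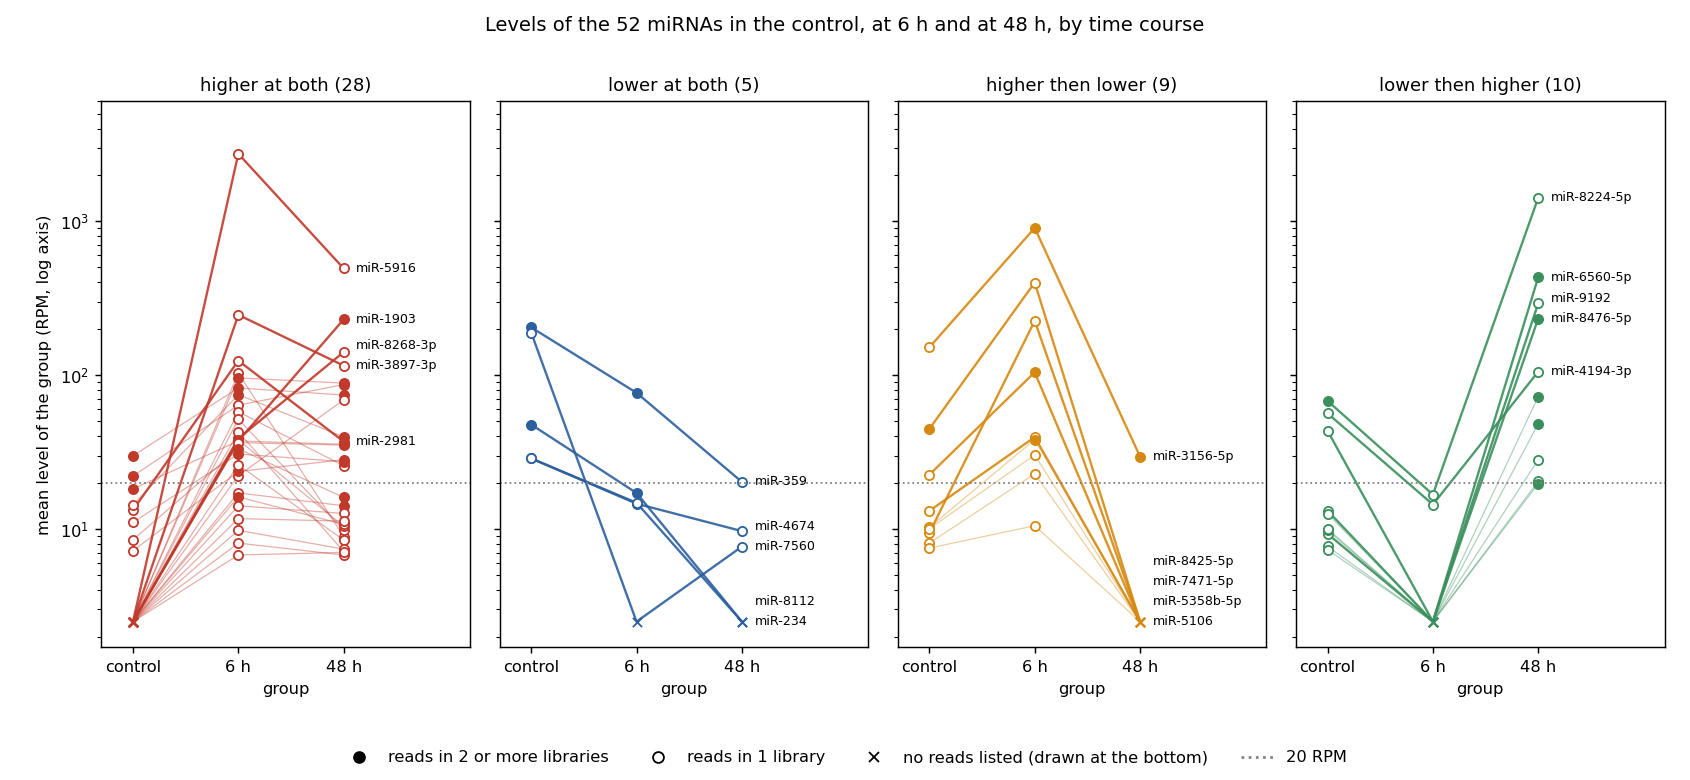
Mean level (RPM, log axis) of each of the 52 miRNAs in the control, 6 h and 48 h groups, 1 panel per time course; filled points stand for reads from more than 1 library, open points for 1 library, and crosses had no reads listed. The 28 miRNAs higher at both times start at or below 29.9 RPM in the control, and most reversed courses pass through a group without reads.

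Most of these levels came from single animals. Of 117 group values with reads, 79 came from 1 library, 16 from exactly 2 and 22 from 2 or 3. Over all listed names, members included, 364 group values came from 1 library and 208 from more. Reads from a single library were thus not particular to the members. For 27 members the higher group had reads in 1 library at both times, and for these 27 no group held reads in more than 1 library. In 9 members the higher group had reads from more than 1 library at both times: miR-152b, miR-4110-3p, miR-6048, miR-222-3p, miR-2861, miR-222 and miR-79-3p, which were higher, and miR-359 and miR-8112, which were lower. None of the 19 reversed members did.

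**Figure D2:**
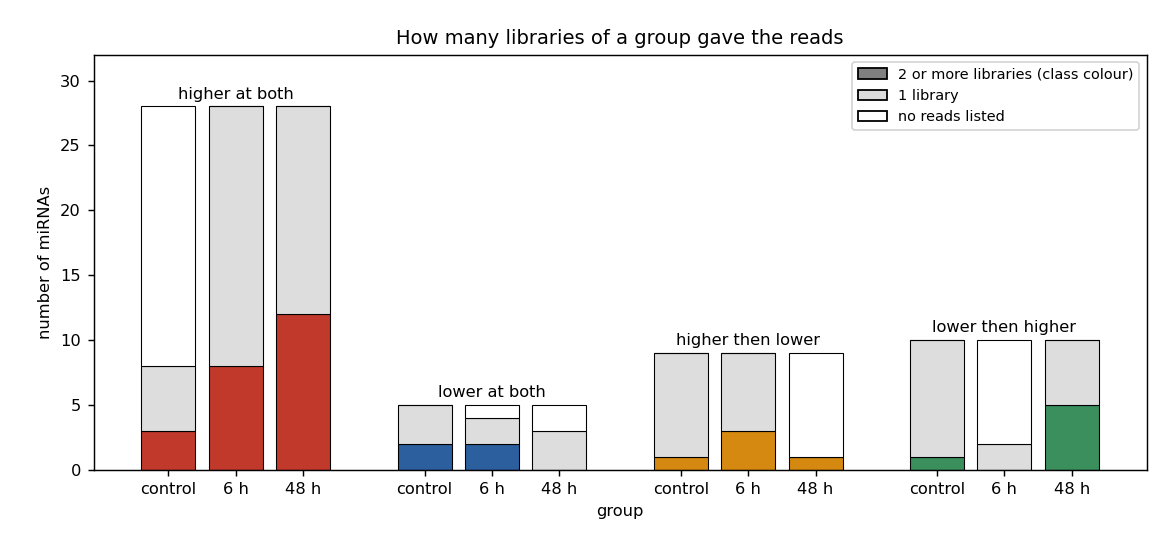
Number of miRNAs (vertical axis) whose reads in a group came from 2 or more libraries (colour), from 1 library (grey) or were absent (white), for each time course and group. Among the 28 miRNAs higher at both times, 8 had reads in 2 or more libraries at 6 h and 12 at 48 h, while 20 had no reads in the control.

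Among the miRNAs higher at both times, miR-152b was the one with no control reads and reads in more than 1 library at each heat time. In mammals it belongs to the family of miR-148 and miR-152, which acts on the DNA methyltransferase DNMT1. It was listed at 0 in the control, at 95.9 RPM at 6 h and at 88.7 RPM at 48 h. The heat groups were thus close to each other and both lay above the listing minimum, at least 4.79-fold and 4.43-fold over the control. At 48 h the library with the most held 50.9% to 55.0% of the summed level, so another animal carried much of the rest. At 6 h that share was between 43.7% and 79.9%.

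miR-4110-3p carries a name first given in the tunicate Ciona. It stood at 29.9 RPM in the control, 82.5 RPM at 6 h and 74.1 RPM at 48 h, with more than 1 library contributing in each group. The mean was 2.76-fold and 2.48-fold higher than the control, or at least 2.26-fold and 2.03-fold. At 6 h exactly 2 libraries had reads, at 200.8 and 46.6 RPM, so 1 animal held 81.2% of the level. Without that animal the 6 h mean was 23.3 RPM, and without the library with the most the control mean lay between 15.1 and 25.6 RPM. The log2 ratio at 6 h was then -0.13 at the upper end of that range, and the order is the opposite at its lower end.

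miR-6048 had 14.3 RPM in the control, all from the library of 91.6 M reads at 43.0 RPM. It reached 74.6 RPM at 6 h and 39.7 RPM at 48 h, with reads in 2 or more libraries each time. The higher mean was 5.20-fold and 2.77-fold above the control, and at least 2.70-fold and 1.43-fold. At 48 h the mean thus stayed above the control even with its empty libraries at 20 RPM, but by less than 2-fold.

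The members miR-222-3p and miR-222 had similar courses, and a further listed name, miR-222a-5p, is not a member. In vertebrates miR-222 is made with miR-221 and restrains an inhibitor of the cell cycle. miR-222-3p stood at 18.2 RPM in the control, 37.3 RPM at 6 h and 35.5 RPM at 48 h. Its control reads came from 2 libraries, at 28.3 and 26.4 RPM, and the 48 h level could be nearly even over 3 libraries, with 34.1% to 68.9% in the library with the most. The name miR-222 had 11.04 RPM in the control, from 1 library, 30.7 RPM at 6 h and 27.4 RPM at 48 h, where 2 libraries held 42.0 and 40.1 RPM. The least folds were 1.499 and 1.43 for miR-222-3p, and 1.26 and 1.12 for miR-222, so neither reached 2-fold. Their counts differed by more than 15% and they were kept as separate names, although they may match some of the same reads.

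miR-79-3p belongs to the miR-9/79 family of invertebrates, known from Caenorhabditis elegans and Drosophila. It had 7.22 RPM in the control, from 1 library, 23.6 RPM at 6 h and 28.2 RPM at 48 h. At 6 h the reads lay in 2 libraries at 47.5 and 23.4 RPM, and at 48 h in 2 libraries at 42.7 and 41.8 RPM. The control library with reads was at 21.7 RPM, close to the listing minimum, and the least folds were 1.15 and 1.37. miR-2861, which in mice promotes the differentiation of bone-forming cells, had 8.51 RPM in the control, 33.2 RPM at 6 h and 16.01 RPM at 48 h. Its reads came from 2 libraries at each heat time, and the least folds were 1.52 and 0.73.

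**Figure D3:**
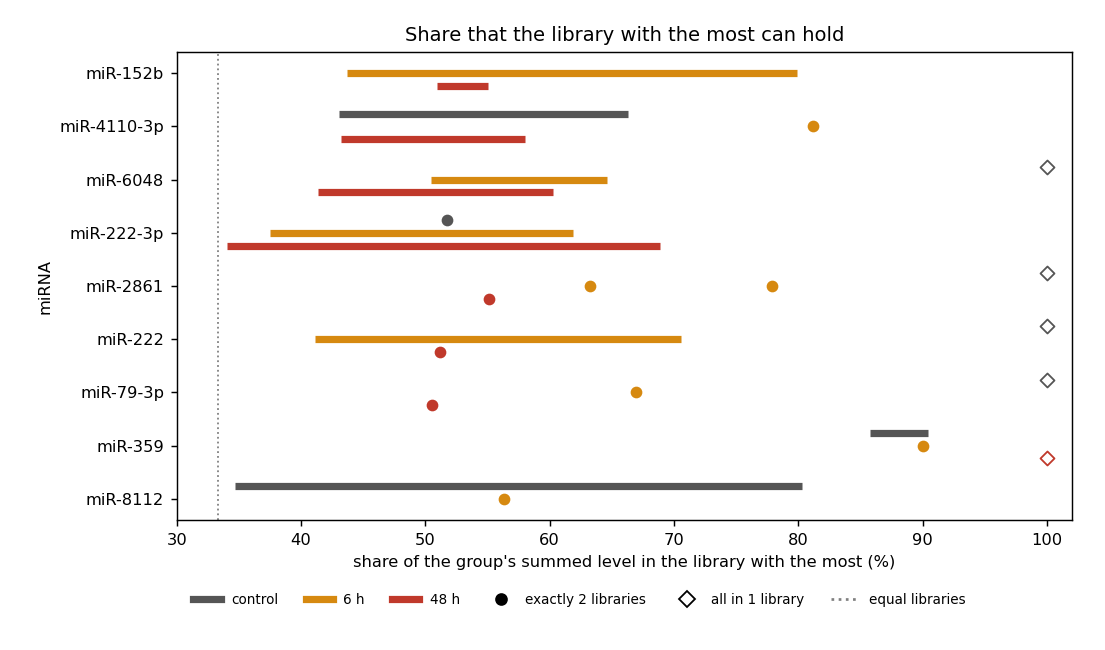
Share (%) of a group's summed level that lay in the library with the most, for the 9 miRNAs whose higher group had more than 1 library with reads at both times; bars span the least and most share that count and mean allow, points are groups with exactly 2 libraries with reads (each allowed solution), and diamonds are groups with reads in 1 library. For miR-152b, miR-222 and miR-79-3p at 48 h the share was close to 50%, with 50.5% for miR-79-3p, while for miR-359 it was at least 85.8% in the control.

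The highest levels in this class rested on 1 animal. miR-5916 had no control reads, a mean of 2739.6 RPM at 6 h and 492.7 RPM at 48 h. At 6 h its reads came from the library of 54.4 M reads at 8219 RPM, and at 48 h from the library of 113 M reads at 1478 RPM. miR-3897-3p had 246 RPM at 6 h and 115 RPM at 48 h against none, each from 1 library, at 738 and 345 RPM. The other libraries of these groups were below 20 RPM for both names, so each group combined 1 high animal with others at or under the minimum.

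Others differed in which heat time was higher. miR-1903 had no control reads, 37.3 RPM at 6 h from 1 library and 230.1 RPM at 48 h, where the library with the most held 59.9% to 63.2%. miR-8268-3p went from 38.7 RPM at 6 h to 141 RPM at 48 h and miR-1791-5p from 22.2 RPM to 69.0 RPM, all from 1 library and none in the control. miR-2763-3p had 22.1 RPM in the control, 63.8 RPM at 6 h and 86.8 RPM at 48 h, at least 2.22-fold and 3.02-fold higher. At 6 h its reads came from 1 library at 191 RPM, and in the control from 2 libraries at 42.1 and 24.1 RPM. At 48 h the library with the most held 75.5% to 77.6% of the summed level. With the library with the most left out of both groups, the control mean was under 20 RPM. Set to 20 RPM, it left a log2 ratio of 0.54 to 0.67 at 48 h.

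In the other order, miR-2981 had 13.3 RPM in the control, 124 RPM at 6 h from 1 library and 37.0 RPM at 48 h. miR-3965 had 103 RPM at 6 h and 8.91 RPM at 48 h against none in the control. miR-194-5p, the gut epithelial miRNA of vertebrates, had 51.6 RPM at 6 h and 9.87 RPM at 48 h, each from 1 library at 155 and 29.6 RPM. miR-6903-3p, miR-4539, miR-4094-5p, miR-7155-5p and miR-2201-3p had no control reads, from 26.1 to 57.8 RPM at 6 h and from 7.13 to 35.1 RPM at 48 h. All of these but miR-7155-5p at 48 h had their reads in 1 library.

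The last 7 of the class had no control reads and both heat means under 20 RPM, so no fold can be stated for them. miR-252-5p, of a family found in many invertebrates, had 16.2 RPM at 6 h from 2 libraries at 28.4 and 20.1 RPM, and 10.7 RPM at 48 h from 1. miR-206-3p, a skeletal muscle miRNA of vertebrates, had 11.7 and 11.2 RPM, each from 1 library. The authors' predicted novel_mir_16 had 14.1 and 12.6 RPM, from 1 library at each time. miR-6936-3p, miR-7847-3p, miR-1260b and miR-6090 stood between 6.77 and 17.2 RPM. For the 20 members of this class without control reads, any heat reads at both times make the direction higher, so the direction follows from the choice of members.

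Among the 5 miRNAs lower at both times, miR-359, a name from Caenorhabditis elegans, had the highest control level. It stood at 204 RPM in the control, 76.7 RPM at 6 h and 20.2 RPM at 48 h, 2.66-fold and 10.09-fold lower, or at least 2.45-fold and 6.08-fold. Its control mean rested largely on 1 animal, which held at least 85.8% of the level, which leaves a mean of at most 43.5 RPM for the rest of the control. At 6 h the reads lay in 2 libraries at 207 and 23.0 RPM, so the highest animal at 6 h was well above that mean. At 48 h 1 library had 60.7 RPM.

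miR-8112 had 47.7 RPM in the control, 17.1 RPM at 6 h and none at 48 h, at least 2.004-fold and 2.38-fold lower. The control level could be almost even over 3 libraries, with 34.7% to 80.3% in the library with the most, and at 6 h 2 libraries held 29.0 and 22.4 RPM. Control reads of miR-7560 came from the library of 109 M reads at 566 RPM, a group mean of 189 RPM, against none at 6 h and 7.68 RPM at 48 h. Without that animal the control would be listed at 0, so no direction would remain at 6 h. miR-4674 had group means of 28.8, 14.6 and 9.69 RPM and miR-234, a nematode neuronal miRNA, had means of 28.7, 14.8 and 0 RPM. Every group with reads had them in 1 library for this pair, and the least folds lay between 1.02 and 1.44.

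Higher levels at 6 h and lower levels at 48 h than the control were listed for 9 miRNAs. miR-3156-5p was the one with reads in all groups, at 151 RPM in the control, 904 RPM at 6 h and 29.5 RPM at 48 h. It was at least 5.49-fold higher and then at least 4.18-fold lower. All control reads came from the library of 91.6 M reads at 454 RPM, and at 6 h 1 library held at least 96.6%, with a mean of 29.6 to 45.5 RPM over the others. With the library with the most left out of both groups, and the emptied control at 20 RPM, the log2 ratio at 6 h kept its direction, at 0.57 to 1.19. At 48 h 2 libraries had reads, the highest at 59.8 or 62.2 RPM.

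miR-7471-5p had 44.7 RPM in the control, in 2 libraries at 106 and 27.7 RPM, 399 RPM at 6 h and none at 48 h. The 6 h reads came from the library of 69.3 M reads at 1198 RPM. It was at least 7.78-fold higher and then at least 2.23-fold lower. miR-5358b-5p had 9.44 RPM in the control, 225 RPM at 6 h and none at 48 h, with 1 library behind each level. miR-5106 had 22.5 RPM, 104 RPM and none, and its 6 h reads came from 2 or 3 libraries, with at most 69.0% in the library with the most. These courses share a high 6 h group and no reads at 48 h. The least fold of the lower call at 48 h was only 0.47 for miR-5358b-5p and 1.13 for miR-5106.

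The other 5 of this class had lower 6 h means than those above. miR-8425-5p, miR-8989, miR-3960, miR-2527 and miR-4009c-3p had control means of 7.51 to 13.1 RPM, 6 h means of 10.5 to 39.5 RPM and no reads at 48 h. miR-3960 lies beside miR-2861 in the mouse genome and acts with it in bone-forming cells. It was at 8.10 RPM in the control, 22.8 RPM at 6 h and 0 at 48 h, while miR-2861 was higher at both times. The least fold of miR-3960 was 1.07 at 6 h and 0.40 at 48 h, so these data do not separate the courses of the pair. miR-4009c-3p, another Ciona name, had reads in 2 or 3 libraries at 6 h, the other 4 in 1. With control means this low the lower call at 48 h had a least fold below 1 for all 5.

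Lower levels at 6 h and higher levels at 48 h were listed for 10 miRNAs. miR-8224-5p had 67.9 RPM in the control, 16.7 RPM at 6 h and 1420.03 RPM at 48 h, at least 2.26-fold lower and then at least 19.0-fold higher. The control reads came from 2 or 3 libraries, but the 48 h reads came from the library of 113 M reads alone, at 4260.08 RPM. With the library with the most left out of the control and the 48 h group, the control mean lay between 23.6 and 51.4 RPM and the 48 h group was empty. The log2 ratio at 48 h was then -1.36 at the upper end of that range, with the empty group at 20 RPM. The 6 h reads also came from 1 library, at 50.2 RPM. With that library left out in the same way, the log2 ratio at 6 h was between -1.36 and -0.24. miR-6560-5p had 43.4 RPM in the control from 1 library, none at 6 h and 433 RPM at 48 h, with at most 99.7 RPM on average outside the library with the most. It was at least 2.17-fold lower and then at least 7.62-fold higher.

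miR-9192 had 9.30 RPM in the control, none at 6 h and 293 RPM at 48 h, where all reads came from 1 library at 879 RPM. miR-8476-5p had 13.1 RPM, none and 233 RPM, the last from 2 or 3 libraries. miR-599 had 9.82 RPM, none and 72.5 RPM, and its 48 h level could be almost even, with 34.9% to 73.0% in the library with the most. miR-4295 had 12.6 RPM, none and 48.2 RPM, from 2 libraries at 84.4 and 60.3 RPM. For these 4 the control mean was so low that the lower call at 6 h had a least fold between 0.46 and 0.66, whereas the higher call at 48 h had one between 1.86 and 12.9. Only the 48 h side thus stands clear of the listing minimum, and it falls short of 2-fold for miR-4295.

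miR-4194-3p, also a Ciona name, had 56.4 RPM in the control, 14.4 RPM at 6 h and 105 RPM at 48 h, each from 1 library. Its least folds were 2.03 and 1.51. miR-210a, of the family induced by low oxygen in vertebrates, had 10.04 RPM in the control from 1 library, none at 6 h and 19.7 RPM at 48 h from 2 libraries, with least folds of 0.50 and 0.84. miR-7959a-3p and miR-1421ai-3p had 7.69 and 7.32 RPM in the control, none at 6 h, and 28.2 and 20.4 RPM at 48 h, all from 1 library. Of the 19 reversed miRNAs in both directions, 16 had a group listed at 0. A least fold of at least 2 in both directions was reached by 4: miR-3156-5p, miR-7471-5p, miR-8224-5p and miR-6560-5p.

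**Figure D4:**
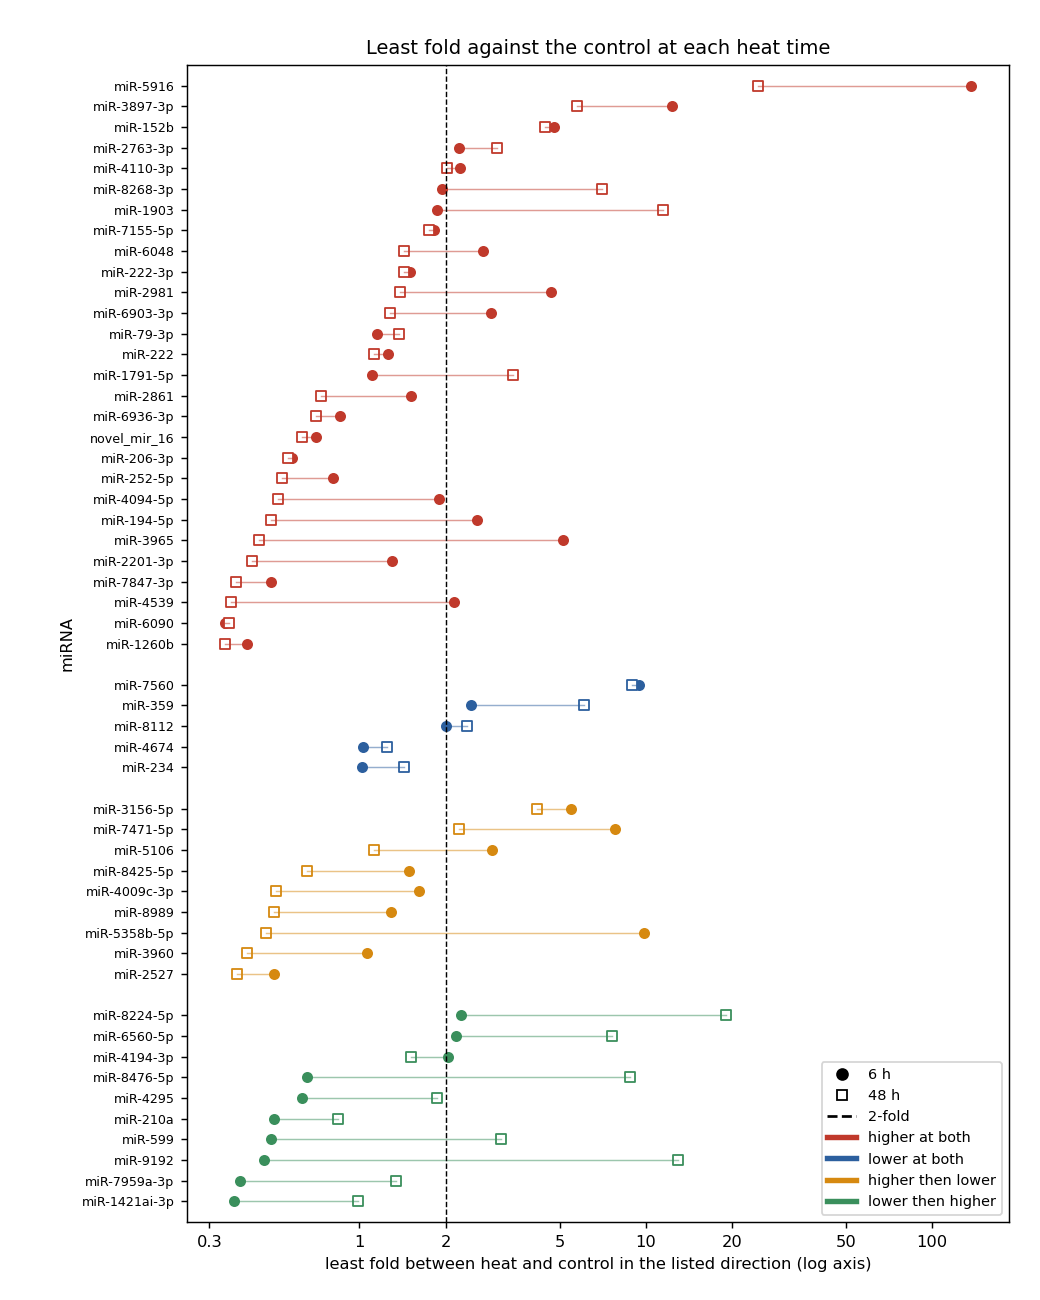
Least fold between heat and control in the listed direction (log axis) for each of the 52 miRNAs at 6 h (filled circles) and 48 h (open squares), coloured by time course; the dashed line marks 2-fold. Of the 28 miRNAs higher at both times, 5 have both marks past the line, as do 3 of the 5 lower at both and 2 of each reversed class.

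The heat groups share no animals and can be set against each other without the control. On pooled counts 14 of the 52 members were past 2-fold in the direction of 48 h and 20 in the direction of 6 h. Among the 80 names listed at both times with heat reads, 19 (23.8%) and 34 (42.5%) were. These 80 names include the 52 members, so nothing is read from the member counts beside these shares. By a least fold of at least 2, 9 of the 52 members were higher at 48 h, against 13 (16.2%) of the 80 names. They were miR-8224-5p at 47.2-fold, miR-6560-5p at 21.6-fold, miR-9192, miR-8476-5p, miR-1903, miR-4194-3p, miR-599, miR-8268-3p and miR-4295. By the same measure 10 of the 52 were higher at 6 h, against 19 (23.8%) of the 80 names. They were miR-3156-5p at 25.0-fold, miR-7471-5p at 19.97-fold, miR-5358b-5p at 11.3-fold, miR-5916, miR-5106, miR-3965, miR-2981, miR-359, miR-194-5p and miR-4539. The pair with the highest ratio in each direction had at least 84.6% of the level of the higher heat group in 1 library. miR-152b, miR-4110-3p, miR-222-3p, miR-222 and miR-79-3p had means at 6 h and 48 h that lay 1.05-fold to 1.19-fold apart.

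The reversed classes also differed in the control library that held their reads. Of the miRNAs higher at 6 h and lower at 48 h, 8 of 9 had all control reads in the library of 91.6 M reads. Among those lower at 6 h and higher at 48 h, 1 of 10 did, 4 had them in the library of 109 M reads alone and 4 in that of 145 M reads alone. The library of 91.6 M reads was also the most common one for names outside the 52 with control reads in 1 library. It held 64.7% of them, against 5.88% in that of 109 M and 29.4% in that of 145 M. Whether either class departs from these shares was not tested. Of all 14 members with control reads in the library of 91.6 M reads alone, 13 had reads at 6 h and 6 at 48 h. Of the 11 with control reads in 1 of the other libraries alone, 3 had reads at 6 h and 11 at 48 h. For names outside the 52, with the other libraries pooled, the order was the same at lower shares and on few names. At 6 h, 9 of 60 listed names (15%) and 2 of 32 (6.25%) had heat reads. At 48 h, 3 of 55 (5.45%) and 5 of 32 (15.6%) did. The order at 48 h came from the library of 145 M reads, with 5 of 26 names. For control reads in the library of 109 M reads alone, 0 of 6 such names had heat reads at each time. Of the 6 members with control reads there alone, 1 had reads at 6 h and 6 at 48 h. The members were chosen for having heat reads, the library totals do not say which animal is which, and the part of single control animals in the reversed courses was not tested.

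In the heat groups the library behind single-library reads was spread like that of other names. At 6 h, 15 of 30 such members had their reads in the library of 54.4 M reads, 12 in that of 69.3 M and 3 in that of 96.9 M, and the shares of other names were 48.3%, 40.4% and 11.2%. At 48 h, 5 of 24 lay in the library of 57.2 M reads, 8 in that of 61.9 M and 11 in that of 113 M, against 26.6%, 28.7% and 44.7% of other names. The control was less alike. Of 25 such members there, 56% lay in the library of 91.6 M reads, 24% in that of 109 M and 20% in that of 145 M. The shares of other names were 64.7%, 5.88% and 29.4%.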

How the data were processed

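Per the labels' protocols, RNA of 18 to 30 nt from the intestine of 9 individuals was sequenced by HiSeq. The trimming, aligner, miRNA database and counting rules were not given in the sources used here. Per the file headers, the authors deposited a table per heat time with a read count for each miRNA and group, pooled over 3 libraries. Their expression column names no unit; on the values it is the authors' mean RPM over 3 libraries, with 0.001 for an empty library. Per the file headers the authors also gave a log2 ratio, a p-value and a q-value, without naming the test. Their q-values, at most 1.3e-184 for the members, compare pooled reads and measure counting error. The number of tested names was read from the ratio of q to p.

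Python 3.11.15 with numpy 2.4.6, pandas 2.3.3 and scipy 1.17.1 was used. A library total is the value at which pooled count over summed RPM repeats for names with reads in 1 library. The summed totals met the constant of the authors' log2 ratio within 0.0127% at 6 h and 0.0271% at 48 h. For the other values, all library levels of 0 or at least 20 RPM that give both count and mean were solved for, and each of 208 such values had a solution. Where no spread over 3 libraries was possible, 2 levels follow. This gave 1 solution for 13 member values and 2 for 3. The 20 RPM minimum is inferred. Assignment was tested on simulated counts spread over known libraries: all 141 simulated control names with reads in 1 library were recovered, 115 of 115 at 6 h and 129 of 129 at 48 h. None of 45, 46 and 53 names with more libraries was assigned to 1. The simulated levels kept the same 20 RPM minimum and the same value for an empty library, so these 2 settings were not tested. They were also made by the relation that the assignment inverts, so full recovery for 1 library follows from the construction.

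The files hold group values only, so the replicate tests planned for values per library were not run and no SD can be given. Named miRNAs are all members, with full values for those in 2 or more libraries, those reversed and the highest of each class. The members, the rule and the lists were chosen with earlier results of these data known. No miRNA sequences or coordinates were used here.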

Additional observations from a re-analysis of the deposited data

How the results depend on the processing

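Counts are given in the order higher at both, lower at both, higher then lower, lower then higher, and were 28, 5, 9 and 10. With groups at 0 set to 20 RPM they were 11, 4, 2 and 3. With a highest mean of at least 50 RPM they were 13, 2, 4 and 6, and with more than 1 library behind the higher group at both times 7, 2, 0 and 0. A least fold of at least 2 at both times left 5, 3, 2 and 2. Leaving the library with the most out of each group left 1, 2, 0 and 0 where the others have the highest means allowed, namely miR-152b, miR-359 and miR-8112, and 0 in each class at the levels least favourable to the call, an alternative chosen after seeing the data. Ratios of mean levels gave 26, 3, 8 and 8, with miR-4674 and miR-234 just under 2-fold at 6 h. Between heat times, 14 were past 2-fold toward 48 h and 20 toward 6 h, or 6 and 6 with more than 1 library behind the higher group, 9 and 13 with groups at 0 set to 20 RPM, and 9 and 10 by the least fold, also chosen after seeing the data. A minimum of 20 RPM, joined names, a q-value under 0.001 and totals without the 5 most abundant names kept every count within 1.5 times. The last moved all log2 ratios by -0.23 at 6 h and -0.05 at 48 h. Of 28 member ratios defined with the library with the most left out, at the highest means allowed for the others, 26 kept their direction and 15 of them stayed past 2-fold. Of 22 defined at the least favourable levels, 20 did and 4 stayed past 2-fold. miR-4110-3p at 6 h (-0.13) and miR-8224-5p at 48 h (-1.36) reversed in both. For miR-8112 the least favourable levels left both groups at or under 20 RPM, with no ratio. The alternatives lose names by their construction. No paired analysis was possible because the tables hold 1 pooled column per group. Counting error at the lowest member count, 1208 reads, spans 1141 to 1278 reads.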

Other observations

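Lists were matched on the number in the name, over all listed names. The stress and ageing list had 2 higher and 2 lower names at 6 h and 5 higher at 48 h, and holds 1 member, miR-210a, which is also in the immune-linked list (1 higher and 2 lower, then 3 and 1). The list conserved in bilaterians had 1 higher and 3 lower, then 3 and 2, with the members miR-210a and miR-252-5p. The aestivation list had 6 higher at 6 h and 4 at 48 h, with the member miR-252-5p, both of whose heat means were under 20 RPM. The authors' predicted names had 2 higher and 2 lower at each time, with the member novel_mir_16. The muscle list had 2 higher and 1 lower, then 6 and 2, with the member miR-206-3p. No member was in the lists of sensory and ciliated (3 lower, then 1 higher and 2 lower), vertebrate cluster (1 higher at 6 h), neural (2 and 2, then 6 higher), epithelial (1 lower, then 2 higher) or secretory names (1 higher and 3 lower, then 4 and 4), and both blood cell lists had no listed name.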
